A study of Mus musculus with 9 samples.

Results

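The genes described here are the 36 mouse genes of glycolysis and of pyruvate metabolism, from the glucose transporters to the pyruvate dehydrogenase kinases, with Hif1a as a regulator of the pathway. They were chosen by symbol, matched through the RefSeq accession of each probe. All 36 were on the array, under 53 probes, and all 36 were among the 20443 genes or identifiers that were tested, out of 32450 measured.

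RNA of sorted cells was hybridised to 9 Agilent arrays with 1 colour, 3 in each of 3 groups. Both embryonic stem (ES) cell groups came from VV3, a single male 129SV line with a fluorescent Venus reporter that the promoter of the germ cell gene Ddx4 (Vasa) drives, and were kept in medium with KSR, FBS and LIF. The control cells (replicates 1, 2 and 3) received the non-silencing siRNA AllStars and were sorted 3 days later as live single cells. The Max knockdown cells (replicates 1, 2 and 4) received siRNA against Max, whose protein pairs with MYC and with other partners to bind DNA, and only live single cells positive for Venus were kept after 3 days, so that siRNA and gate differed together. The third group (replicates 1, 2 and 3) held primordial germ cells (PGCs), the precursors of eggs and sperm, taken by GFP from genital ridges of E13.5 embryos, male, with an Oct4ΔPE-GFP transgene on an MCH x C57BL6/J background. Strain, culture and sort therefore differ between the PGCs and both ES cell groups. The design text calls the replicates biological, and what their numbers mark was not stated.

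Glycolysis splits glucose into pyruvate in the cytosol and yields ATP and NADH. Pyruvate is then reduced to lactate and exported, or it enters mitochondria, where the pyruvate dehydrogenase complex turns it into acetyl-CoA unless kinases of the PDK family switch that complex off. Many steps are shared by isoforms that differ in kinetics and tissue, and several of these genes are known targets of HIF-1 and of MYC. Mouse ES cells are known for high glycolytic flux.

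The promoters of 4 genes are printed because they belong to the pairs of isoforms whose balance differed most between PGCs and ES cells in these data, the subunits of lactate dehydrogenase and the lactate carriers. Each runs from 250 bases before to 50 bases after a start site in RefSeq's GRCm38.p6 and is written 5′ to 3′ in the direction of the gene. The positions are chr7:46845554-46845853 for Ldha (plus strand, the first of its 2 promoters), chr6:142507908-142508207 for Ldhb (minus strand), chr3:104638414-104638713 for Slc16a1 (plus strand) and chr11:120948817-120949116 for Slc16a3 (plus strand). Capitals mark ACGTG or GCGTG, the core of hypoxia response elements, on either strand, so a run written CACGT or CACGC is the core on the other strand and CACGTG, the E-box that MYC and MAX dimers bind, holds ACGTG.
Ldha: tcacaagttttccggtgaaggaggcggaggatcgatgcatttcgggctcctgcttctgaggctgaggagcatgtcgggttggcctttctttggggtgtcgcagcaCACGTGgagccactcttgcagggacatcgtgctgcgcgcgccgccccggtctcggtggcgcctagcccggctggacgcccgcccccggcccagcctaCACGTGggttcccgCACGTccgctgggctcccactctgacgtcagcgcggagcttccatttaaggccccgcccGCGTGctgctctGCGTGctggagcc
Ldhb: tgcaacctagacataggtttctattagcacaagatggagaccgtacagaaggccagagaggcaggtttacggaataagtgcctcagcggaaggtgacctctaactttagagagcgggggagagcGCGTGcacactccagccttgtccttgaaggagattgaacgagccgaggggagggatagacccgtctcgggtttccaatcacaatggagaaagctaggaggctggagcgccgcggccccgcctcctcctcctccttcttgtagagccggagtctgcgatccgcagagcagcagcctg
Slc16a1: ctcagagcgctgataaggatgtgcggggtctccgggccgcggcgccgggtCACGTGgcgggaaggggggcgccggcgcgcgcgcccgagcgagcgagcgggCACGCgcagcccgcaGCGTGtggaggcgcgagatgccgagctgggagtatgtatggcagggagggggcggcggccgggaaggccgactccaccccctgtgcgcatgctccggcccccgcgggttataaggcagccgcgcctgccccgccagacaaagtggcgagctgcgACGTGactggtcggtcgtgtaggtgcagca
Slc16a3: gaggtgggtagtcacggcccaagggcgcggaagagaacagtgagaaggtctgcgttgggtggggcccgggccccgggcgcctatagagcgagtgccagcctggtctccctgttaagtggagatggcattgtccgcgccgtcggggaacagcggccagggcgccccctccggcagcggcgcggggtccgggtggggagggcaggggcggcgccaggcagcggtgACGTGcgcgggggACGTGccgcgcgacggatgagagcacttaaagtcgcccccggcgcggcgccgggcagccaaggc
Ldha held 5 capital runs, of which 2 are E-boxes at -145 and -48 from the start site, and Slc16a1 held 4, with 1 E-box at -200. Slc16a3 held 2 runs and Ldhb 1, and neither held an E-box.

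Of the 36 genes, 34 had a promoter in that table, Slc2a3 and Galm being the others. An E-box stood in at least 1 promoter of 7 of these 34 (20.6%), against 11.4% of the 11505 tested genes with a promoter and 8.09% of 27025 genes in all. The 7 were Pfkm, Pfkfb2, Pfkfb3, Ldha, Pdk2, Slc16a1 and Hif1a. ACGTG or GCGTG stood in 29 of the 34 (85.3%), against 64.4% of the tested genes. The base composition differed too, with a median GC content of 60.3% over the 53 promoters of these genes against 52.7% over 32851 promoters. Those 32851 include promoters of genes that were not tested, and the GC content for tested genes alone is not given here. A gene with more promoters has more windows for a match. The shares were not adjusted for this, with 53 promoters for the 34 genes and 32851 for the 27025. The E-box stood in 2 of the 18 matched genes (11.1%) that fell after Max knockdown and in 5 of the other 16 (31.2%). A match describes the letters of a window and is neither a binding site nor a cause.

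Between 58.2% and 67.6% of the spots of an array were well above background, and 0 were saturated. The labels were checked first on Max, which read 2.84, 2.74 and 2.85 (log2 signal relative to the array's 75th percentile) in control cells, 0.59, 0.83 and 1.13 after knockdown and 3.77, 3.65 and 3.57 in PGCs. Ddx4, whose promoter drives the reporter used for the gate, read 0.13 to 0.44, 2.73 to 3.07 and 3.81 to 4.12. Pou5f1, a pluripotency gene shared by ES cells and PGCs, read 4.33 to 4.81 over the 9 arrays. Other ES cell markers differed in PGCs against control, Tdgf1 being 63.1-fold, Esrrb 2.30-fold and Sox2 2.10-fold lower, and Nanog 3.75-fold and Zfp42 1.84-fold higher. The Nanog probe was dim in ES cells (means -4.17 in control cells and -5.14 after knockdown, where 2 of 3 arrays were above background). The summed linear signal of 6 such markers, with Pou5f1 among them, ran from 96.5 to 109 in control cells, from 109 to 115 after knockdown and from 40.8 to 49.5 in PGCs. Of these 6, Nanog was 1.95-fold lower and Sox2 1.49-fold higher after knockdown by limma. Pou5f1, Esrrb, Zfp42 and Tdgf1 did not pass there. The sum of 6 germ cell markers ran from 12.0 to 17.1 in control cells, from 25.5 to 32.1 after knockdown and from 74.1 to 81.5 in PGCs. These markers did not move together. In PGCs against control Ddx4, Dazl, Dnd1 and Nanos3 rose, Tfap2c was 3.74-fold lower and Kit did not pass. After knockdown Ddx4 and Dazl rose, and Dnd1, Nanos3, Tfap2c and Kit did not pass. Of 10 markers of gonadal somatic cells, 9 were above background on all control arrays, 7 on all knockdown arrays and 8 on all PGC arrays, and their sum ran from 7.36 to 8.47, from 4.93 to 6.26 and from 4.04 to 7.52. For 7 fibroblast markers the sum ran from 3.09 to 3.87, from 1.21 to 1.29 and from 1.03 to 1.33, with Lum at background in both ES cell groups and Pdgfrb in PGCs. For 5 muscle markers it ran from 0.619 to 1.14, from 0.207 to 0.229 and from 0.141 to 0.159, with Ckm at background in each group. Blood markers summed to 0.585 to 1.31 and endothelial markers to 1.57 to 2.77 over all arrays. The part of other cell types in the results was not tested, and with bulk RNA fewer cells of a type and less RNA per cell cannot be told apart.

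PGCs differed far more from ES cells than the ES cell groups did from each other. In PGCs against control cells, 26 of the 36 genes fell (adjusted p under 0.05, limma), where 32.4% of all tested genes did, and 6 rose, where 43.2% did, which makes 32 called where 75.6% of all genes were. The arrays of the groups did not overlap for 32 genes (78.5% of all genes). Of those that fell, 19 did so at least 2-fold (20.2% of all genes), and 2 rose at least 2-fold (19.8% of all genes). The median log2 difference was -1.07 over the 36 and 0.18 over all genes. After Max knockdown, 18 genes fell, where 21.9% of all genes did, 3 rose, where 18.2% did, and 15 did not pass, so that 21 were called where 40.1% of all genes were. Arrays did not overlap for 25 (54.1% of all genes). Only Aldoc fell and only Pfkfb2 rose at least 2-fold there (4.83% and 6.32% of all genes), and the median was -0.30 against -0.07 over all genes. PGCs against knockdown cells gave 24 lower (31.4% of all genes) and 7 higher (44.9%), with a median of -0.74 against 0.21, and 31 called (76.3%). There 14 fell and 2 rose at least 2-fold (19.7% and 20.5% of all genes), and arrays did not overlap for 31 (78.5%). The 3 comparisons share arrays, so they are set side by side and not counted as support for each other.

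The scale matters for these counts. Relative to the spike-in transcripts added before labelling, the median of all genes in PGCs against control cells moved from 0.18 to -0.77, and 26 of the 36 genes fell and 1 rose. Among all genes called, 86.5% were then lower, against 42.8% on the 75th percentile. PGCs against knockdown cells likewise gave 26 lower and 1 higher, with a median of all genes of -0.76 and 87.9% of the called genes lower, against 41.2%. For the knockdown, spike-in scaling passed 0 of the 36 with limma (1 at an unadjusted p under 0.05), and 3 higher and 12 lower when the slide was a block, an alternative chosen after the data were seen. The median difference of the 36 after knockdown was -0.29 on the spike-in scale and -0.30 on the main one, so the calls changed and the differences hardly did. The array's 75th percentile minus the spike-in signal (log2) was -0.60, -0.63 and -1.83 in control cells, -0.77, -0.59 and -1.65 in knockdown cells and -1.39, -2.35 and -2.17 in PGCs, so it was lower on slide 2 (control 3 and knockdown 4) than on slide 1. The median of the 36 minus that of all genes was -1.25 in PGCs against control and -0.95 against knockdown cells, a difference that a scale factor per array leaves nearly as it is by construction.

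**Figure D1:**
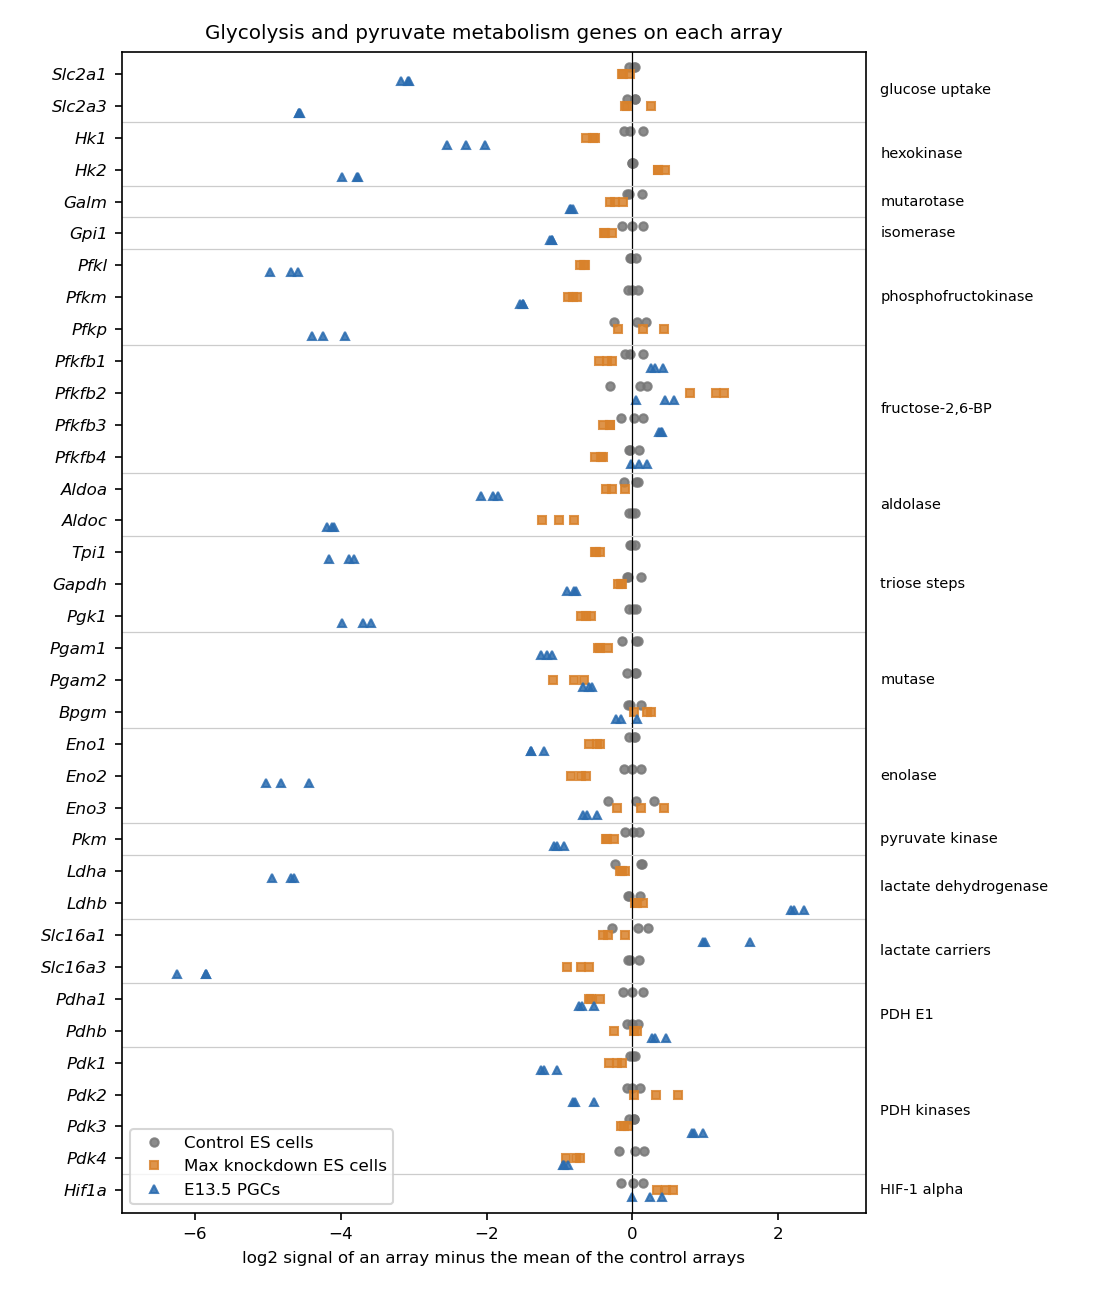
Log2 signal of the 36 genes on each of the 9 arrays, minus the mean of the 3 control arrays of that gene, with 1 point per array and genes grouped by step of the pathway. PGC points (triangles) of Slc2a3, Pfkl, Aldoc, Eno2, Ldha and Slc16a3 lie more than 4 below the control mean and those of Ldhb more than 2 above it. Knockdown points (squares) of most genes stay nearer to the control arrays than PGC points. On average they lie farther for Pfkfb1, Pfkfb2, Pfkfb4, Pgam2, Bpgm and Hif1a. Aldoc and Pfkfb2 have the knockdown points farthest from the control arrays.

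Glucose enters through the transporters GLUT1 (Slc2a1) and GLUT3 (Slc2a3), and both fell in PGCs. Slc2a1 read 5.44, 5.51 and 5.52 on the control arrays, 5.46, 5.36 and 5.34 on the knockdown arrays and 2.43, 2.31 and 2.41 on the PGC arrays. For Slc2a3 the values were 6.84, 6.72 and 6.83, then 7.06, 6.73 and 6.70, then 2.24, 2.23 and 2.22. In both genes every PGC array lay below every ES cell array, while control and knockdown arrays overlapped. Against control, Slc2a1 was 8.58-fold lower in PGCs (log2 -3.10 ± 0.08 (SE, n = 3 and 3), limma adjusted p = 1.5e-08) and Slc2a3 23.7-fold lower (log2 -4.56 ± 0.11). Neither passed after Max knockdown, with log2 differences of -0.10 and 0.03.

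Hexokinases trap glucose as glucose-6-phosphate, and their isoforms moved apart after Max knockdown. Hk1 read 3.35, 3.17 and 3.08 in control cells, 2.56, 2.68 and 2.66 after knockdown and 1.18, 0.91 and 0.66 in PGCs. Hk2, the inducible isoform, read 3.22, 3.24 and 3.23, then 3.67, 3.58 and 3.58, then -0.55, -0.76 and -0.54. The 3 groups did not overlap in either gene, and knockdown arrays were lowered for Hk1 and raised for Hk2. Hk1 fell by 0.56 on the log2 scale after knockdown (SE 0.14, adjusted p = 0.012 by limma) and Hk2 rose by 0.38 (SE 0.09, adjusted p = 0.0083). In PGCs both fell against control, Hk1 4.87-fold and Hk2 14.4-fold.

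Galm, the mutarotase that interconverts the anomers of hexoses, read -1.93, -1.91 and -1.73, then -2.17, -2.10 and -1.99, then -2.67, -2.71 and -2.72. Gpi1, the isomerase that makes fructose-6-phosphate, read 7.46, 7.32 and 7.60, then 7.18, 7.07 and 7.08, then 6.35, 6.36 and 6.33. In both genes all PGC arrays were below all others, by log2 differences from control of -0.84 for Galm and -1.11 for Gpi1, and both fell by limma. After knockdown Gpi1 fell by 0.35 (adjusted p = 0.015), but its adjusted p was 0.051 without control 3 or without knockdown 2. Gpi1 also did not pass under quantile normalization (-0.16) or normexp (-0.10), where its difference was smaller. Galm did not pass after knockdown in the main fit (-0.23, adjusted p = 0.072).

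Phosphofructokinase, the committed step, is built from the liver (Pfkl), muscle (Pfkm) and platelet (Pfkp) subunits, and PGCs were lower in each, but unequally. Pfkl read 3.73, 3.64 and 3.66 in control cells, 3.02, 3.03 and 2.96 after knockdown and -0.91, -1.01 and -1.29 in PGCs. Pfkm read 2.32, 2.23 and 2.18, then 1.35, 1.48 and 1.43, then 0.70, 0.74 and 0.74. Both show 3 separate groups in the order control, knockdown, PGC. Pfkl fell 26.9-fold in PGCs against control and Pfkm 2.85-fold, and after knockdown they fell 1.59-fold and 1.77-fold (adjusted p = 0.0015 and 1.2e-04, limma). Pfkp read 3.10, 2.98 and 2.67, then 3.35, 3.06 and 2.72, then -1.48, -1.02 and -1.33, so that knockdown arrays lay among the control arrays and PGC arrays far below. Its PGC difference was -4.20 by this probe and -0.40 (adjusted p = 0.15) by a second probe that was dim in all groups (-4.02 in control cells), so the size of its change is uncertain.

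PFKFB enzymes set the level of fructose-2,6-bisphosphate, the allosteric activator of phosphofructokinase, and none of the 4 genes fell in PGCs against control. Pfkfb1 read 0.97, 0.91 and 1.15, then 0.66, 0.55 and 0.73, then 1.27, 1.43 and 1.32. Pfkfb2, known from heart, read -3.73, -4.14 and -3.63, then -2.69, -3.04 and -2.57, then -3.38, -3.78 and -3.26. Knockdown arrays were thus the lowest for Pfkfb1 and the highest for Pfkfb2, where PGC and control arrays overlapped. Pfkfb2 rose 2.09-fold after knockdown (log2 1.06 ± 0.19 (SE), limma adjusted p = 0.0029), while Pfkfb1, Pfkfb3 and Pfkfb4 fell by 0.36, 0.34 and 0.45. Without control 3 the adjusted p was 0.055 for Pfkfb1 and 0.063 for Pfkfb3. It was 0.059 for Pfkfb1 without knockdown 2, and for Pfkfb3 it was 0.061 without control 2 or knockdown 4. In PGCs against control Pfkfb1 rose by 0.33 and Pfkfb3 by 0.39 (adjusted p = 0.012 and 0.0044, limma), and both signs turned relative to the spike-ins (-0.62 and -0.56). Against knockdown cells, Pfkfb1, Pfkfb3 and Pfkfb4 rose by 0.69, 0.73 and 0.54, where spike-in scaling gave -0.28, -0.24 and -0.43, and Pfkfb2 fell by 0.71. Pfkfb2 against control passed without PGC 2 (0.51, adjusted p = 0.045).

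Aldolases cleave fructose-1,6-bisphosphate, and Aldoc, the brain isoform, moved further than Aldoa in both contrasts with control. Aldoa read 8.77, 8.74 and 8.57, then 8.59, 8.41 and 8.32, then 6.78, 6.85 and 6.61. Aldoc read 5.38, 5.35 and 5.30, then 4.55, 4.34 and 4.11, then 1.16, 1.25 and 1.23. Aldoc had 3 separate groups, whereas for Aldoa 1 knockdown array lay above the lowest control array. Aldoc fell 2.02-fold after knockdown (log2 -1.01 ± 0.11 (SE), limma adjusted p = 2.7e-04) and 17.6-fold in PGCs against control. Aldoa fell 3.85-fold in PGCs and did not pass after knockdown (-0.25, adjusted p = 0.097), except with the slide as a block.

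Of the enzymes that handle triose phosphates, Tpi1 interconverts them and Pgk1 makes the first ATP. Tpi1 read 6.61, 6.67 and 6.60, then 6.12, 6.19 and 6.13, then 2.74, 2.81 and 2.47. Pgk1 read 7.52, 7.56 and 7.46, then 6.94, 6.87 and 6.80, then 3.81, 3.92 and 3.53. Both genes had 3 separate groups with knockdown between control and PGC. After knockdown Tpi1 fell by 0.48 and Pgk1 by 0.65 (limma adjusted p = 0.0057 and 0.0022), and in PGCs they fell by 3.96 and 3.76 against control. Gapdh, which stands between them in the pathway and is often used as a reference gene, fell by 0.82 in PGCs and did not pass after knockdown (-0.17, adjusted p = 0.15). Its other 6 probes ranged from -2.37 to -1.65 in PGCs and from -0.35 to -0.21 after knockdown, where 4 of the 6 passed (adjusted p = 0.018, 0.028, 0.030 and 0.023, limma), so the brightest probe gave the smallest difference of the 7.

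Lower glycolysis moves the phosphate (mutase), dehydrates (enolase) and transfers phosphate to ADP (pyruvate kinase), and the widely expressed isoforms fell both after knockdown and in PGCs. Pgam1 read 6.65, 6.84 and 6.86, then 6.32, 6.35 and 6.46, then 5.69, 5.62 and 5.54. Eno1 read 7.13, 7.22 and 7.20, then 6.59, 6.69 and 6.73, then 5.97, 5.79 and 5.79. Pkm, whose spliced forms the probe symbol does not separate, read 7.04, 7.15 and 7.23, then 6.79, 6.77 and 6.88, then 6.10, 6.20 and 6.07. In each of the 3 genes the groups were separate, highest in control cells and lowest in PGCs. In PGCs against control they fell by 1.17, 1.33 and 1.02, and after knockdown by 0.41, 0.51 and 0.33 (limma adjusted p = 0.0080, 0.0021 and 0.015). The call of Pkm after knockdown was lost without control 3 (adjusted p = 0.053) or knockdown 2 (0.052), and Pgam1 and Pkm did not pass under quantile normalization (-0.21 and -0.11).

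Eno2, the neuronal enolase, stood apart from Eno1. It read 0.31, 0.08 and 0.20 in control cells, -0.44, -0.51 and -0.65 after knockdown and -4.83, -4.62 and -4.23 in PGCs, where 1 of 3 arrays was well above background. The 3 groups did not overlap, and the difference was -4.76 in PGCs against control and -0.73 after knockdown (limma adjusted p = 0.0056). The muscle forms Eno3 and Pgam2 differed from each other. Eno3 did not pass after knockdown (0.11) and fell by 0.60 in PGCs (adjusted p = 0.019), a call lost without control 2 (0.052), control 3 (0.068) or PGC 1 (0.055). Pgam2 fell by 0.85 after knockdown and by 0.61 in PGCs. Bpgm, which makes the haemoglobin ligand 2,3-bisphosphoglycerate, passed in none of the 3 comparisons, with differences from -0.26 to 0.15. Without knockdown 1 or PGC 2 it was lower in PGCs than in knockdown cells (-0.33 and -0.35, adjusted p = 0.030 and 0.018), and Pgam2 was higher without knockdown 2 (0.34, adjusted p = 0.030).

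Lactate dehydrogenase interconverts pyruvate and lactate as a tetramer of A (Ldha) and B (Ldhb) subunits, and its subunit genes moved in opposite directions in PGCs. Ldha read 7.39, 7.75 and 7.76 in control cells, 7.46, 7.49 and 7.53 after knockdown and 2.99, 2.95 and 2.69 in PGCs. Ldhb read 3.30, 3.15 and 3.14, then 3.35, 3.26 and 3.24, then 5.38, 5.55 and 5.42. All PGC arrays lay below the ES cell arrays for Ldha and above them for Ldhb, and control and knockdown arrays overlapped in both. Against control, Ldha fell 27.1-fold in PGCs (log2 -4.76 ± 0.13 (SE), limma adjusted p = 1.7e-08) and Ldhb rose 4.77-fold (log2 2.25 ± 0.09, adjusted p = 9.1e-08). Against knockdown cells the folds were 24.5 and 4.49. The other probes of Ldha gave larger falls in PGCs, -6.03 and -6.42. They also passed after knockdown (-0.54 and -0.51, adjusted p = 0.0064 and 0.0059), where the brightest probe did not (-0.14, adjusted p = 0.41).

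The monocarboxylate carriers MCT1 (Slc16a1) and MCT4 (Slc16a3), which carry lactate across the plasma membrane, also moved apart. Slc16a3, the carrier typical of cells that export lactate, read 5.90, 5.78 and 5.75, then 5.10, 5.21 and 4.91, then -0.04, -0.04 and -0.44. Slc16a1 read -4.52, -4.65 and -5.01, then -4.83, -5.06 and -5.14, then -3.76, -3.74 and -3.12, with 1 knockdown array not well above background. PGC arrays were the lowest for Slc16a3 and the highest for Slc16a1, and knockdown arrays of Slc16a3 lay below the control arrays. Slc16a3 was 63.1-fold lower in PGCs than in control cells (log2 -5.98 ± 0.13 (SE), limma adjusted p = 1.0e-08), and 1.66-fold lower after knockdown (adjusted p = 0.0029). The PGC difference was the largest of the 36 in that comparison by the brightest probes, though other probes of Ldha gave -6.03 and -6.42. The second probe of Slc16a3 gave -6.02 and -0.79. Slc16a1 rose 2.28-fold in PGCs against control (adjusted p = 6.1e-04), and differed by 0.24 (adjusted p = 0.74) relative to the spike-ins.

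Pyruvate dehydrogenase E1 consists of an alpha (Pdha1) and a beta (Pdhb) subunit. Pdha1 read 1.72, 1.86 and 1.59, then 1.15, 1.28 and 1.13, then 1.19, 1.03 and 0.99. Control arrays were above all others, and knockdown and PGC arrays overlapped. Pdha1 fell by 0.54 after knockdown and by 0.66 in PGCs against control (limma adjusted p = 0.0032 and 3.3e-04). Pdhb rose by 0.35 in PGCs against control (adjusted p = 0.017), yet its other probe gave 0.01 and the spike-in scale -0.60. That call was lost without control 1 (0.056) or PGC 3 (0.062). Against knockdown cells Pdhb rose by 0.41, where its other probe gave 0.02 and the spike-in scale -0.56.

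The kinases that inactivate the complex differed by isoform. Pdk1, a known HIF-1 target, read 2.33, 2.30 and 2.25, then 1.97, 2.08 and 2.14, then 1.26, 1.04 and 1.08. Pdk2 read -1.80, -1.62 and -1.73, then -1.70, -1.10 and -1.40, then -2.25, -2.54 and -2.51. In both, PGC arrays were below all ES cell arrays, and for Pdk2 control and knockdown arrays overlapped. In PGCs against control Pdk1 fell by 1.17, Pdk2 by 0.72 and Pdk4 by 0.93, whereas Pdk3 rose by 0.88 (limma adjusted p = 1.2e-05), a rise that spike-in scaling turned to -0.07. Pdk4 was the only one to pass after knockdown (-0.80, adjusted p = 6.4e-04) with all arrays, and Pdk2 passed there without knockdown 1 (0.46, adjusted p = 0.036).

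Hif1a, the oxygen-regulated subunit of HIF-1, read -0.14, -0.27 and -0.44, then 0.28, 0.06 and 0.18, then 0.12, -0.29 and -0.04. Knockdown arrays were above all control arrays, and PGC arrays overlapped both. It rose by 0.46 after knockdown (limma adjusted p = 0.022), a call lost without control 2 (0.056), control 3 (0.073), knockdown 1 (0.070) or knockdown 4 (0.054). It did not pass in PGCs against control (0.21, adjusted p = 0.16), except without PGC 2 (0.32, adjusted p = 0.046), nor against knockdown cells (-0.25, adjusted p = 0.11), except without PGC 1 (-0.34, adjusted p = 0.044).

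The balance between isoforms was compared as the log2 difference of 2 genes on the same array, in which the scale of the array cancels, over 12 pairs per comparison. An exact permutation test (2-sided) of 3 arrays against 3 cannot go below p = 0.1, so none can pass 0.05. In PGCs against control all 12 pairs reached that smallest p (0.1 after Benjamini-Hochberg adjustment) with no overlap of arrays, where 78.5% of all single genes had none. The same share over differences of 2 genes was not computed, so the count of pairs has no background of its own. Ldhb minus Ldha moved by 7.01, from -4.09, -4.60 and -4.62 in control cells to 2.40, 2.61 and 2.73 in PGCs. Slc16a3 minus Slc16a1 moved by -7.17, from 10.42, 10.43 and 10.76 to 3.73, 3.70 and 2.68. Slc16a3 alone differed by -5.98 and Slc16a1, dim in every group (means -4.73, -5.01 and -3.54), by 1.19. The moves of these 2 pairs were the widest of the 12 on either side of 0. Eno2 against Eno1 (-3.43, with Eno2 above background on 1 of 3 PGC arrays), Pfkm against Pfkl (3.24), Aldoc against Aldoa (-2.19) and Pdk3 against Pdk1 (2.04) followed.

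After Max knockdown, 9 of the 12 pairs had no overlap (p = 0.1, adjusted p = 0.13, exact permutation test), where arrays did not overlap for 54.1% of all single genes. Here too the share over differences of 2 genes was not computed. Hk2 against Hk1 moved by 0.95, Pfkp against Pfkl by 0.80, Aldoc against Aldoa by -0.76, Eno3 against Eno1 by 0.62 and Pdk2 against Pdk1 by 0.55. The same 5 pairs moved by -1.56, 0.55, -2.19, 0.73 and 0.45 in PGCs against control. Each gene was read by its brightest probe, which for Pfkp gave 0.13 after knockdown, -4.20 in PGCs against control and -4.32 against knockdown cells. The dimmer Pfkp probe gave 0.66, -0.40 and -1.06, so the moves of Pfkp against Pfkl depend on the probe. Ldhb against Ldha moved by 0.23 (p = 0.4), Slc2a3 against Slc2a1 by 0.13 (p = 0.3) and Eno2 against Eno1 by -0.22 (p = 0.2), each with overlapping arrays in the same exact test. The Ldha probe used gave -0.14 after knockdown where its other probes gave -0.54 and -0.51, so the move of Ldhb against Ldha depends on the probe. In PGCs against knockdown cells, Pfkp against Pfkl (-0.24, p = 0.4), Eno3 against Eno1 (0.11, p = 0.6) and Pdk2 against Pdk1 (-0.10, p = 0.8) overlapped, and the other 9 did not (p = 0.1, adjusted p = 0.13, exact permutation test).

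**Figure D2:**
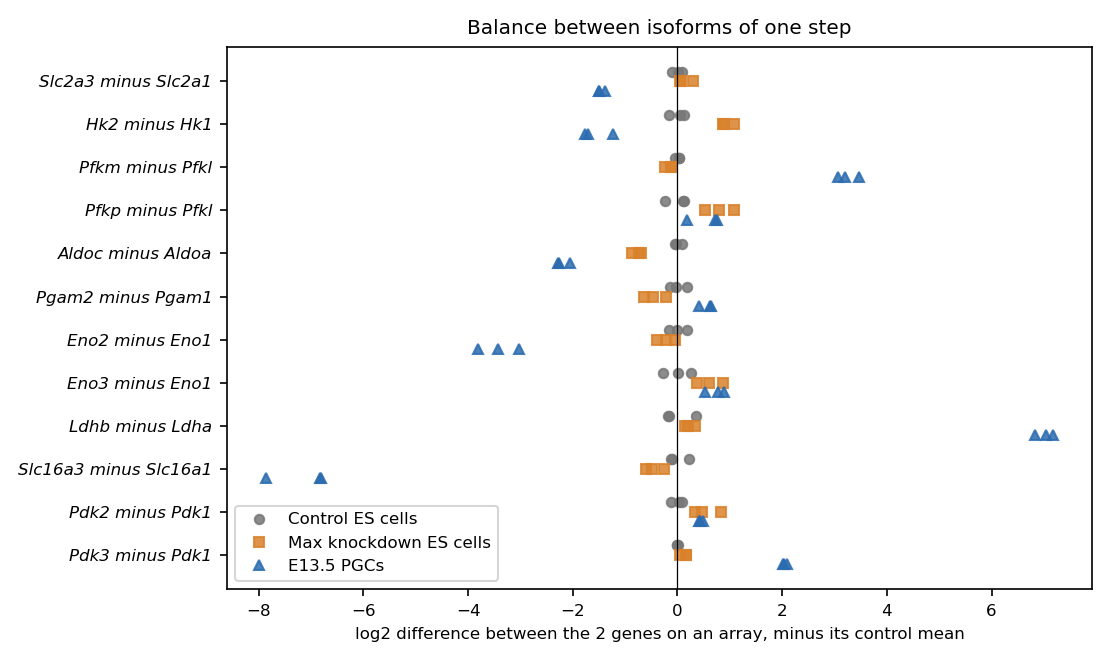
Log2 difference between the 2 genes of each of 12 isoform pairs on each array, minus its mean over the control arrays, with 1 point per array. PGC points of Ldhb minus Ldha lie near 7 and those of Slc16a3 minus Slc16a1 near -7. For Pfkp minus Pfkl and Pdk2 minus Pdk1 the mean of the knockdown points lies farther from the control mean than that of the PGC points. Each gene is read by its brightest probe, and the dimmer Pfkp probe gave another change (-0.40 instead of -4.20 in PGCs against control).

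Of the 36 genes, 10 had several probes, and 9 of these had at least 2 that were tested. Different probes of Hk1, Gpi1, Pfkfb3, Tpi1 and Slc16a3 differed by at most 1.27-fold in any comparison. Probes disagreed by 13.9-fold for Pfkp, 3.16-fold for Ldha and 2.93-fold for Gapdh in PGCs against control, all on the same side of 0. Gapdh, Ldha, Eno1, Pgam1 and Tpi1 have near-identical processed copies in the mouse genome, and signal shared with such copies was not tested.

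**Figure D3:**
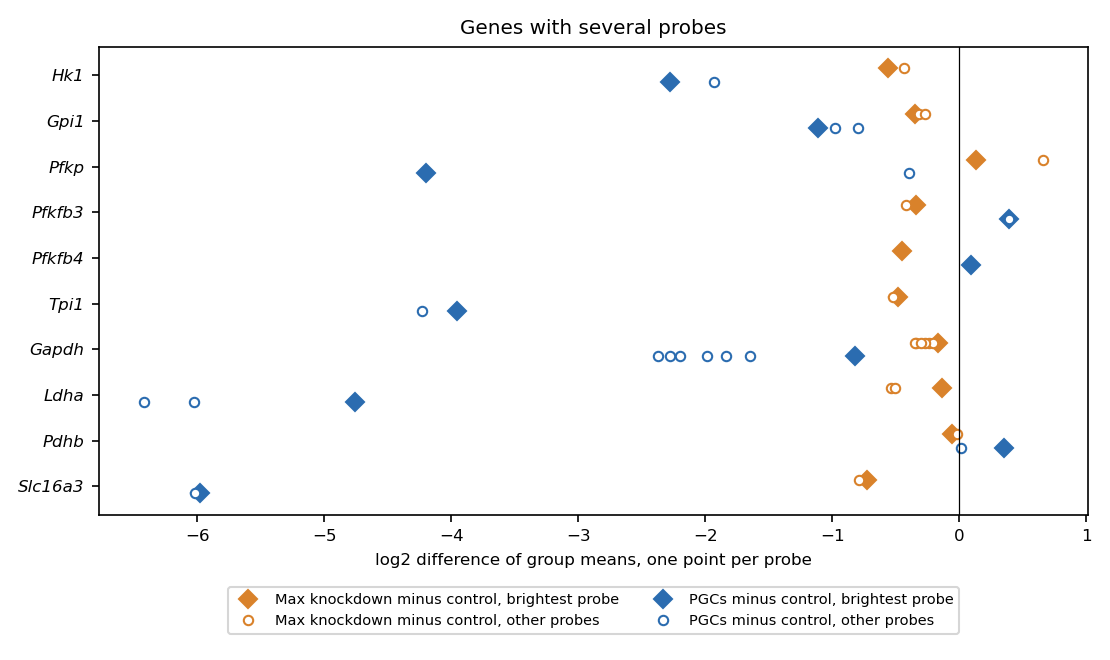
Log2 difference of group means for each tested probe of the 10 genes with several probes, in knockdown against control and PGCs against control, with filled diamonds for the brightest probe used throughout and open circles for the others. Circles lie left of the diamond in PGCs for Gapdh and Ldha, and far right of it for Pfkp.

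Genes next to the pathway were counted from 5 lists by the same fit. Of all genes tested, 18.2% rose and 21.9% fell after knockdown, 43.2% rose and 32.4% fell in PGCs against control, and 44.9% rose and 31.4% fell in PGCs against knockdown cells, and each list's count is given beside these shares as a description. Of 8 partners of pyruvate entry, 5 rose and 1 fell in PGCs against control, where 43.2% and 32.4% of all genes did, with a median of 1.02, and relative to the spike-ins 1 rose and 1 fell, with a median of 0.07. Pdp1, a phosphatase that reactivates pyruvate dehydrogenase, rose by 2.84 (limma adjusted p = 8.7e-08) and Mpc2, a subunit of the mitochondrial pyruvate carrier, by 1.67, whereas the phosphatase Pdp2 fell by 2.59. After knockdown 4 rose, among them Pdhx, the E3 binding protein of the complex (0.79, adjusted p = 9.9e-04), and Pdpr, which regulates the phosphatase and was at background on all control arrays (at least 1.88-fold higher), and Pdp2 fell by 0.67. Against knockdown cells 4 rose and 1 fell, with Pdp1 at 2.92, Mpc2 at 1.22 and Pdp2 at -1.92, and spike-in scaling turned Dlat and Pdhx from higher (0.42 and 0.30) to -0.55 and -0.67 (adjusted p = 0.42 and 0.31, limma).

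Among 21 tested genes that lead into side branches of carbon (pentose phosphate pathway, glycogen, gluconeogenesis and the glycerol phosphate shuttle), 8 fell and 2 rose after knockdown, where 21.9% and 18.2% of all genes did, and 11 fell and 5 rose in PGCs against control, where 32.4% and 43.2% did (11 and 1 relative to the spike-ins). Pcx, which carboxylates pyruvate to oxaloacetate, rose by 1.65 after knockdown (limma adjusted p = 1.5e-05), while the glycogen phosphorylase Pygl fell by 1.40 and the shuttle enzyme Gpd2 by 0.87. In PGCs Rpia, the ribose-5-phosphate isomerase, rose by 2.59, Gpd2 fell by 2.91 and Pck2, a gluconeogenic enzyme at background on the PGC arrays, was at least 3.05-fold lower. Relative to the spike-ins, Pgls, Taldo1 and Fbp1 turned from higher to below 0 in PGCs against control. Against knockdown cells 10 fell and 6 rose (11 and 1 relative to the spike-ins, where Pgd and Pygb turned to below 0), with Rpia at 2.50, Gpd1 at -3.03 and Gpd2 at -2.04.

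Of 13 tested further isoforms and carriers, 1 rose and 4 fell after knockdown, and 3 rose and 8 fell in PGCs against control (1 and 8 relative to the spike-ins). Pgm2l1, which makes glucose-1,6-bisphosphate, rose in both (2.03 and 2.71), and the hexokinase-like Hkdc1 fell by 2.75 after knockdown (limma adjusted p = 8.7e-05) and was at background in PGCs (at least 20.8-fold lower than control and 3.09-fold lower than knockdown). Slc2a6, a glucose transporter of the GLUT family, fell by 1.12 after knockdown. Bsg, the chaperone that MCT1 and MCT4 need to reach the membrane, fell by 1.23 in PGCs. Adpgk and Tigar, higher in PGCs than in control cells, turned to below 0 relative to the spike-ins. Against knockdown cells 4 rose and 7 fell, with the transporter Slc2a8 at -1.43, and relative to the spike-ins 0 rose and 7 fell, Adpgk, Slc16a8, Pgm2l1 and Tigar turning from higher to below 0.

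HIF regulators and targets outside glycolysis were mostly lower in PGCs, with 16 of 20 tested genes lower (32.4% of all genes) and 2 higher (43.2%) against control (16 and 0 relative to the spike-ins) and a median of -1.79. Vegfa, the endothelial growth factor, fell by 4.60, Ndrg1 by 5.21 and the carbonic anhydrase Car9 by 3.68 (limma adjusted p = 4.9e-08, 5.3e-08 and 6.1e-08). Hif1an, higher against control, turned to below 0 relative to the spike-ins. Against knockdown cells 16 were lower and 4 higher (16 and 0 relative to the spike-ins, where Hif1an, Bnip3l and Kdm3a turned to below 0), with Vegfa at -4.02, Ndrg1 at -4.15 and Higd1a at -1.69. After knockdown 10 fell and 1 rose, with a median of -0.41. The smallest adjusted p among genes changed at least 1.5-fold were those of Car9 (-2.42), Ankrd37 (-0.93) and Ndrg1 (-1.06), and Adm, named after its value was seen, fell by 1.70 (adjusted p = 0.0044, limma). In the network of MYC, MAX and MLX, 12 genes were tested. Mxd4, an antagonist of MYC that pairs with MAX, rose after knockdown (1.81) and in PGCs (2.19), and Myc rose by 1.33 after knockdown and fell by 3.16 in PGCs against control (limma adjusted p = 6.8e-04 and 6.8e-07). Txnip, an inhibitor of glucose uptake, rose by 1.15 after knockdown and fell by 1.39 in PGCs against control. In all, 4 of the 12 rose and 3 fell after knockdown (18.2% and 21.9% of all genes), 3 rose and 5 fell in PGCs against control (43.2% and 32.4%), and 4 rose and 6 fell in PGCs against knockdown cells, where Myc differed by -4.48, Max by 2.81 and Txnip by -2.55. Spike-in scaling gave 1 rise and 5 falls in PGCs against control, where Max turned from 0.85 to -0.1 and Mlxip from 0.39 to -0.56. Against knockdown cells it gave 1 rise and 7 falls, and Mlx, Mlxip and Mxd4 turned to below 0. For the knockdown it passed 0 of the partners of pyruvate entry, 1 side-branch gene, 2 further isoforms, 2 HIF genes and 2 network genes by limma.

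**Figure D4:**
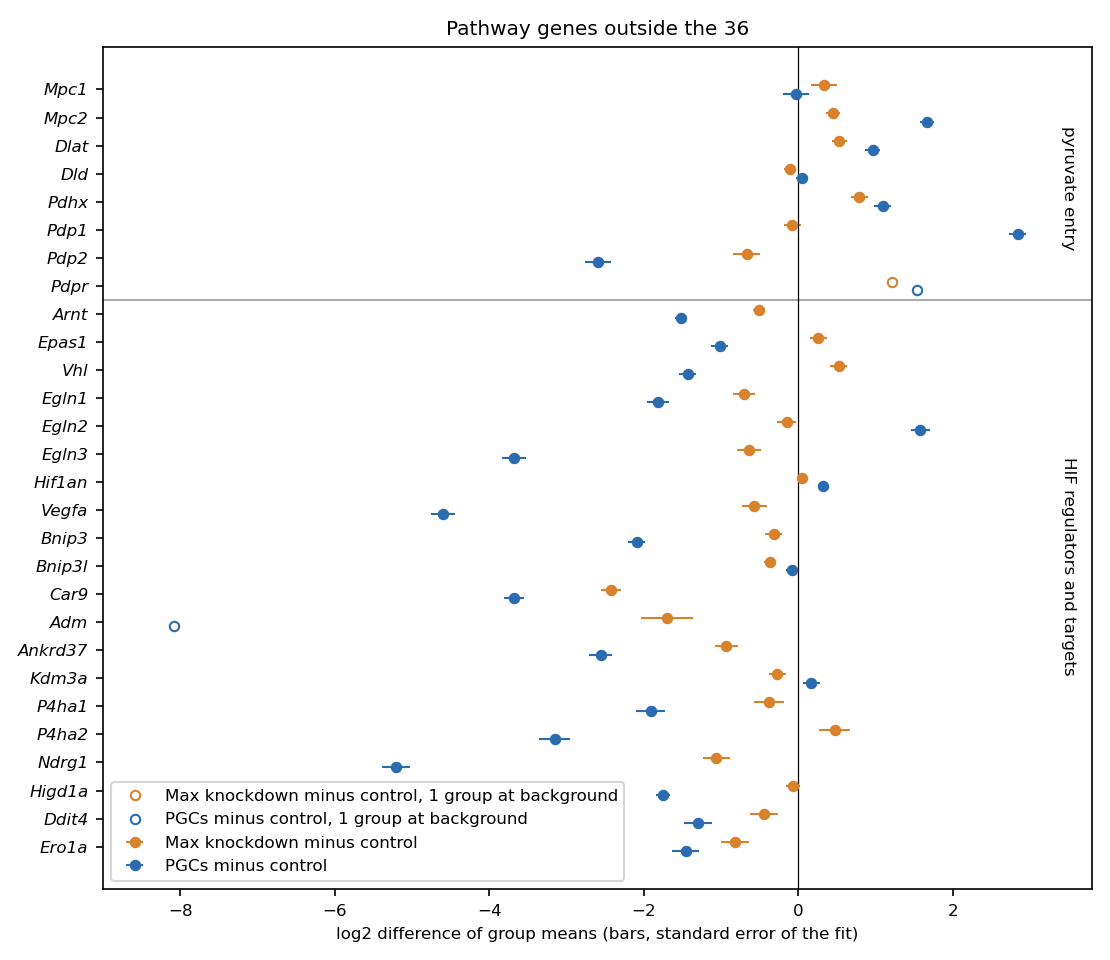
Log2 difference of group means with its standard error from the fit for 8 partners of pyruvate entry and 20 genes of the HIF pathway, in knockdown against control and PGCs against control. Most PGC points of HIF genes lie left of 0, with Vegfa at -4.60 and Ndrg1 at -5.21, and open circles without bars mark Pdpr and Adm, for which 1 group was at background and the plotted value is no bound.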

How the data were processed

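Probes of 36 genes were compared between 3 control, 3 Max knockdown and 3 PGC arrays. Per the file headers, the authors' scanner files hold Cy3 intensity from Agilent Feature Extraction 10.7.3.1, already background-subtracted and detrended in the column used. The authors' deposited value table holds log2 values whose centring is not stated. It runs in the same direction as the scanner values and matched them after centring on each probe's median (r from 0.99994 to 0.99999 across probes). Its column medians were -0.02, -0.12, -0.07, 0, 0, 0, 0, 0.34 and 0.39, and further steps applied to it are unknown.

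Spots of a probe were averaged, log2 of the intensity was taken and the array's 75th percentile subtracted. Control spots and 65 probes with an outlier flag were left out, which left 39364 probes. Of these, 26012 were named by RefSeq accession through a table of GRCm38.p6, used for names only since the array header gives mm9, and 13352 kept the file's identifier. The brightest probe stood for a gene. Tested were genes that every array of some group measured well above background. Of the 36 genes, 34 were so on all 9 arrays, the others being Eno2 and Slc16a1, and replicate SDs ran from 0.01 to 0.37. The fit used limma 3.58.1 in R 4.3.3 over all 9 arrays, without a block, with Benjamini-Hochberg adjustment over all 20443 genes and a threshold of 0.05, and was tested on simulated data. The number of arrays limits the precision. "At least" folds are taken against the lowest signal well above background on each array of the dim group, or the probe's own if higher.

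Slide 1 held control 1, control 2, knockdown 1 and knockdown 2, and slide 2 held control 3 and knockdown 4. PGC 1 lay on slide 3 and the other PGC arrays on slide 4, so PGCs and slides cannot be told apart. The main fit held no block. Slide was a random block for the PGC comparisons only in an alternative fit, which cannot separate PGCs from slides either. Within slide 1 and within slide 2, the median difference of the 36 after knockdown was -0.28 and -0.31.

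Alternatives were quantile normalization, 7 spike-in probes as the scale, normexp (offset 50) on median signals, filters on dim genes, the mean of probes or each probe, the deposited table, fits of 2 groups, blocks, and leaving out each array. Normexp without spots below their local background and spike-in scaling with a slide block were chosen after seeing the data. Values on every array are given for genes at least 2-fold and past the test in a comparison and for the first gene of each step; from each list, the 3 genes with the smallest adjusted p at 1.5-fold or more are named, except 1 that is not reported here. The genes, lists and promoters were chosen with earlier results of these data known.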

Additional observations from a re-analysis of the deposited data

How the results depend on the processing

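Counts of the 36 genes called stayed within 1.5 times of the main count under each alternative except scaling on the spike-ins. There, limma called 0 genes after knockdown, with 0 higher and 0 lower (1 at an unadjusted p under 0.05), while the median of the 36 was -0.29 instead of -0.30. On that scale limma called 1 gene higher in PGCs against control and 1 against knockdown cells. Over all genes it called 1007 after knockdown instead of 8205 (71.4% higher instead of 45.3%), 8620 in PGCs against control instead of 15451, and 8273 against knockdown cells instead of 15593. Signs turned there for Pfkfb1 (-0.62), Pfkfb3 (-0.56), Pdk3 (-0.07) and Pdhb (-0.60) in PGCs against control. Against knockdown cells they turned for Pfkfb1 (-0.28), Pfkfb3 (-0.24), Pfkfb4 (-0.43) and Pdhb (-0.56). By construction, this scaling moves every gene of a comparison by the same amount. The median of all genes moved from 0.18 to -0.77 in PGCs against control and from 0.21 to -0.76 against knockdown cells. Why the 2 scales differ was not tested. Leaving out 1 array gave 16 to 21 genes called after knockdown (2 to 3 higher, 14 to 18 lower), 31 to 34 in PGCs against control (5 to 8 higher, 25 to 26 lower) and 31 to 32 against knockdown cells (7 to 8 higher, 24 to 25 lower). With the replicate number as a block, in which knockdown 4 has a level of its own, 15, 33 and 31 of the 36 were called, and 6098 genes in all after knockdown. Control and knockdown share only the numbers 1 and 2, whose arrays deviated together (r = 0.37 and 0.39), as did control 3 and knockdown 4 of the same slide (r = 0.51), while control 1 with knockdown 2 and control 2 with knockdown 1, on 1 slide, did not (r = -0.03 and -0.07). The labels do not tie control 3 to knockdown 4, so these 3 pairs were not fitted as a block, and calls after knockdown, or their absence, hold for unpaired arrays. PGC arrays did not deviate with ES cell arrays of their number (r from -0.03 to 0.02). After knockdown, Gpi1, Pgam1 and Pkm did not pass under quantile normalization or normexp, Pfkfb4 under the mean of probes, Pfkfb3 and Hif1a without a filter on dim genes, and Gpi1, Pfkfb1, Pfkfb3, Eno2, Pkm and Hif1a with the replicate block. Galm passed under quantile normalization, normexp and the slide block, Aldoa with the slide block, Slc2a3 under normexp, and Gapdh and Ldha under the mean of probes. Pdhb did not pass in either PGC comparison under quantile normalization, normexp or the mean of probes.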
